A study of Mus musculus with 3 samples.

Results

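Genes of the MHC class II pathway were examined in mouse retina after injection into the vitreous of agents related to caveolin-1. The listed genes were H2-Aa, H2-Ab1, H2-Eb1, H2-DMa, Cd74, Ciita, Ctss and Ifi30, and a listed gene was used if a probe set was annotated to its symbol alone. That left 7 of the 8 listed genes, out of 22180 genes in the series, each with 1 probe set. The only probe set of Cd74 was annotated to a second symbol too, so Cd74 has no value here. The genes were chosen by values of these same arrays, namely their differences between the 3 arrays, so every difference below is a description and none was tested.

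The tissue was retina of C57 mice, with 1 Affymetrix whole-transcript array per group and 5 to 6 pooled retinae per array. Caveolin-1 is the main coat protein of caveolae, small pits of the cell membrane. The array labelled Cav1-shRNA held retinae taken 2 days after injection of a short hairpin RNA named for Cav1. The cavtratin array held retinae taken 2 hr after injection of cavtratin, a cell-permeable peptide with the scaffolding domain of caveolin-1. The control array held retinae taken 2 hr after injection of AP, an agent that the labels do not spell out. With 1 pool per group, no spread between animals or pools can be given for any value, and the number of arrays limits every comparison. The array labelled Cav1-shRNA differs from both other arrays in time as well as in agent, and these cannot be told apart. Pooled tissue also cannot separate more cells of a type from more RNA per cell.

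MHC class II molecules are pairs of an alpha and a beta chain that display peptides from endocytosed proteins to helper T cells. They are made mainly by dendritic cells, B cells and macrophages, and microglia, the resident macrophages of the retina, can make them when activated. New class II pairs bind the invariant chain, encoded by Cd74, and travel to endosomes and lysosomes. There cathepsin S, encoded by Ctss, trims the invariant chain, GILT, encoded by Ifi30, reduces disulfide bonds of the antigen, and the H2-DM pair helps peptides to load. Transcription of the class II chains depends on the coactivator Ciita, which acts through factors bound to the X and Y boxes of their promoters.

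Promoter sequences from RefSeq (GRCm38.p6) were used for 5 of the 8 genes. Shown are the 250 bases before the start site of both class II chains with an entry, which hold the boxes that Ciita acts through, and of Ctss, the gene with the largest difference between the array labelled Cav1-shRNA and AP control among the 7. Capitals mark matches, on either strand, to CTNGCAAC (X1 box), TGACGTCA (the CREB site, as in X2 boxes), CTGATTGG (Y box) and GAAANNGAA (the core of the interferon-stimulated response element, ISRE). The X1 and Y letters were set after these windows had been read.
H2-Aa, chr17:34287824-34288073, minus strand: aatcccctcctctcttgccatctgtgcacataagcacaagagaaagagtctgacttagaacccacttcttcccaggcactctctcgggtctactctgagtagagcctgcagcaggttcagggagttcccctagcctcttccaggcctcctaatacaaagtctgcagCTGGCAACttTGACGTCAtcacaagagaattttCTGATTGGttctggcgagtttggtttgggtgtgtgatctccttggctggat
H2-Eb1, chr17:34305617-34305866, plus strand: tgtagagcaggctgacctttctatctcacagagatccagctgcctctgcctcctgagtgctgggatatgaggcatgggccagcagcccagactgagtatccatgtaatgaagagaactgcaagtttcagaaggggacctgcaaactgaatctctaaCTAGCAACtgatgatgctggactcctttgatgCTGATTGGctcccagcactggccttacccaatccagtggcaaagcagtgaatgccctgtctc
Ctss, chr3:95526536-95526785, plus strand: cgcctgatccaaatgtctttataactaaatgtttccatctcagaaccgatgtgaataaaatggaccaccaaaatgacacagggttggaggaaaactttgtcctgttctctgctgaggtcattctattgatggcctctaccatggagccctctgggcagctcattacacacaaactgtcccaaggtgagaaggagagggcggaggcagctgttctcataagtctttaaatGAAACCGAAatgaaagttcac

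In H2-Aa the X1 match lay at −84 to −77 relative to the start, the CREB site at −74 to −67 and the Y match at −51 to −44. In H2-Eb1 the X1 match lay at −94 to −87 and the Y match at −62 to −55. Matches to both X1 and Y letters stood in 51 of 32851 windows of this length, or 0.155%, with X1 letters in 2.84% and Y letters in 3.83%. The 51 were not particular to class II, since they also held the windows of the class I genes H2-D1 and H2-M10.5 and of the lysosomal gene Lamp2, besides H2-Eb2. The CREB site stood in 1.55% of windows. The ISRE match of Ctss lay at −21 to −13, and 7.13% of windows held one. No matches overlapped one another. Windows of H2-DMa and Ifi30 held no match to any of the 4 motifs, which says only that these letters are not in those windows.

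Values are on the scale of the deposited table, read as log2, and a difference is that of the log2 values of both arrays. A gene was called expressed in a comparison when its higher array reached a floor of 6.50, the median over all probe sets with 1 symbol. All 7 genes reached that floor in every comparison. Exact ties between arrays were common in this table, with 43.2% of expressed genes equal in all 3 arrays, so a tie was not read as equal RNA. As a measure of technical spread, a difference estimated from one probe set of a gene had an SD of 0.118 for cavtratin minus AP control, 0.0892 for Cav1-shRNA minus AP control and 0.113 for Cav1-shRNA minus cavtratin. It came from 271 genes with several probe sets and holds no spread between animals. Rod markers marked the tissue as retina, with a mean log2 level between 11.86 and 11.90 in the 3 arrays over 7 of 8 listed genes. Cav1 itself was at 8.26 in all 3 arrays, so the array labelled Cav1-shRNA showed no lower Cav1 value, and every direction drawn from it below stands under that limit.

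The alpha and beta chains that form the peptide groove were highest in the array labelled Cav1-shRNA. H2-Aa, the alpha chain of the I-A molecule, was at 7.74 in the array labelled Cav1-shRNA, 7.05 in cavtratin and 7.05 in AP control. H2-Ab1, the beta chain of I-A, was at 7.89 in the array labelled Cav1-shRNA, 7.44 in cavtratin and 7.60 in AP control. H2-Eb1, the beta chain of the I-E molecule, was at 7.84 in the array labelled Cav1-shRNA, 7.06 in cavtratin and 7.24 in AP control. For all 3 chains the array labelled Cav1-shRNA was the highest, cavtratin was the lowest or tied with AP control, and the gap above AP control was larger than the gap below it. H2-Ea, the alpha chain that would pair with H2-Eb1 and which C57BL/6 mice do not express because its promoter region is deleted, was at 4.29 in all 3 arrays, below the floor. H2-Ea was added after its value was seen.

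**Figure D1:**
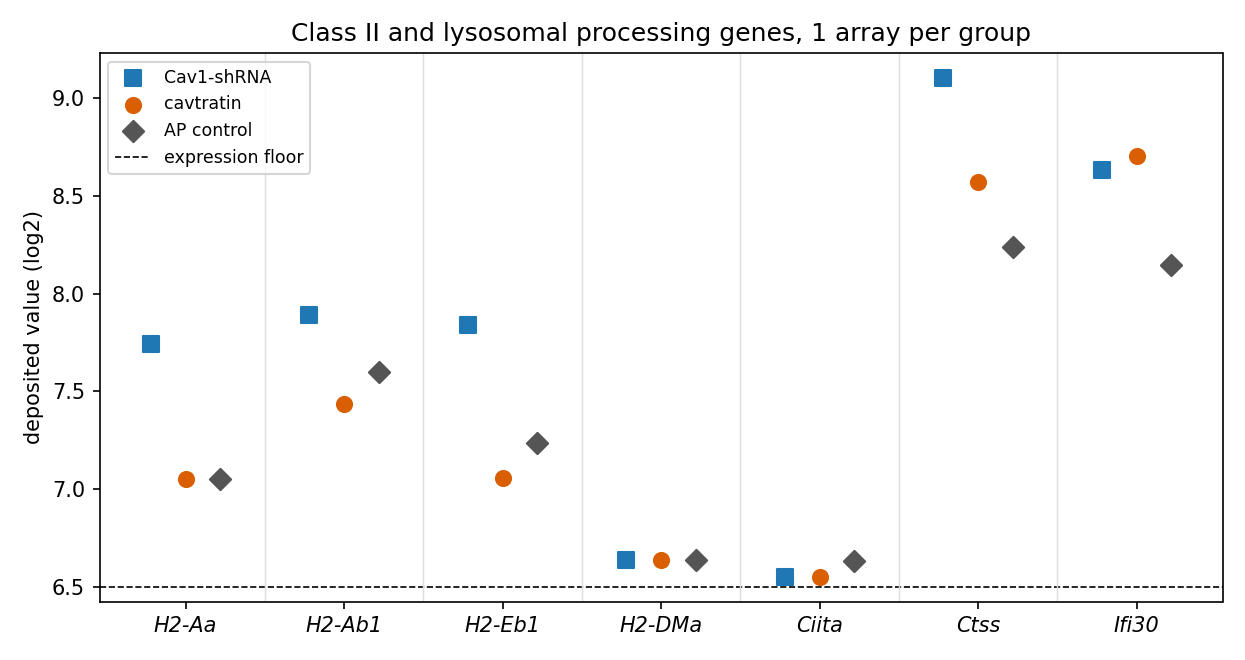
Deposited log2 value (y axis) of the 7 measured genes (x axis) in the array labelled Cav1-shRNA (squares), in cavtratin (circles) and in AP control (diamonds), 1 array each, with the expression floor of 6.50 as a dashed line. The array labelled Cav1-shRNA is highest for the 3 class II chains and Ctss, while H2-DMa and Ciita lie near the floor with little or no difference.

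The genes that act on the chains did not all follow them. H2-DMa, the alpha chain of the peptide-exchange factor H2-DM, was at 6.64 in all 3 arrays. Ciita, the class II coactivator, was at 6.55 in the array labelled Cav1-shRNA, 6.55 in cavtratin and 6.63 in AP control. Both lay close to the floor, where a difference in RNA can be compressed. Ctss, the cathepsin that trims the invariant chain, was at 9.10 in the array labelled Cav1-shRNA, 8.57 in cavtratin and 8.24 in AP control. Ifi30, the lysosomal thiol reductase, was at 8.63 in the array labelled Cav1-shRNA, 8.70 in cavtratin and 8.15 in AP control. Both lysosomal enzymes were thus higher in both agent arrays than in AP control, with Ctss highest in the array labelled Cav1-shRNA and the agent arrays close to each other for Ifi30.

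The cavtratin and AP control arrays were taken at the same time after injection. The class II chains were equal or slightly lower, with a difference of −0.18 for H2-Eb1, −0.16 for H2-Ab1 and 0 for H2-Aa, and the lysosomal enzymes were higher, by 0.55 for Ifi30 and 0.33 for Ctss. These are a 1.47-fold higher value for Ifi30 and a 1.26-fold higher one for Ctss. Of the 7 genes, 2 lay above 0, 3 below and 2 at exactly 0, with a median of 0. Among all 11477 expressed genes 19.6% lay above 0, 25.9% below and 54.5% at 0, also with a median of 0. None of the 7 was at least 1.5-fold higher or lower, against 2.19% and 0.235% of expressed genes, and none was at least 2-fold apart, against 1.36% higher and 0.0958% lower. Differences at least as large in the same direction were seen in 2.28% of expressed genes for Ifi30, 3.40% for Ctss, 2.35% for H2-Eb1 and 2.86% for H2-Ab1. The values for H2-Ab1 and H2-Eb1 are within 2 SDs of the probe set spread.

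The array labelled Cav1-shRNA was then set against AP control, which is the same control array as in the previous comparison. Ctss was higher by 0.87, H2-Aa by 0.69, H2-Eb1 by 0.60, Ifi30 by 0.48 and H2-Ab1 by 0.29, while Ciita was at −0.083 and H2-DMa at 0. As ratios these are 1.82-fold for Ctss, 1.61-fold for H2-Aa, 1.52-fold for H2-Eb1, 1.40-fold for Ifi30 and 1.23-fold for H2-Ab1. The median over the 7 was 0.48 with 5 above 0 and 1 below, beside a median of 0 over 11433 expressed genes with 25.2% above 0 and 21.9% below. At least 1.5-fold higher were 3 of the 7, Ctss, H2-Aa and H2-Eb1, against 0.901% of expressed genes. None was at least 2-fold higher, against 0.341%, and none was at least 1.5-fold or 2-fold lower, against 0.367% and 0.122%. The share of expressed genes at least as far above 0 was 0.481% for Ctss, 0.665% for H2-Aa, 0.866% for H2-Eb1, 1.24% for Ifi30 and 2.33% for H2-Ab1.

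The comparison of the array labelled Cav1-shRNA with cavtratin leaves the control array out. H2-Eb1 was higher by 0.78, H2-Aa by 0.69, Ctss by 0.53 and H2-Ab1 by 0.46, whereas Ifi30 was at −0.069 and H2-DMa and Ciita were at exactly 0. The ratios were 1.72-fold for H2-Eb1, 1.61-fold for H2-Aa, 1.45-fold for Ctss and 1.37-fold for H2-Ab1. The median of the 7 was 0.46, with 4 above 0, 1 below and 2 at exactly 0. Over 11472 expressed genes the median was 0, with 25.9% above 0, 19.4% below and 54.7% at 0. H2-Eb1 and H2-Aa were 2 of only 11 expressed genes at least 1.5-fold higher in the array labelled Cav1-shRNA, which is 0.0959% of them, while 175 genes, or 1.53%, were at least 1.5-fold lower. None of the 7 was at least 2-fold higher or lower, against 0.0349% and 0.785% of expressed genes. The other 9 of the 11 included Ly6c2, a surface marker of inflammatory monocytes, at 1.92, and Ms4a7, a membrane protein of macrophages, at 1.39. In cavtratin these 2 lay below the floor, at 6.16 and 6.40. Ccl5, a chemokine that attracts T cells and monocytes, was at 1.08, Ecel1 at 1.06, Sprr1a at 0.97 and Apod at 0.79. Mir187, Trav9d-3 and Mir30e were at 0.80, 0.74 and 0.59, and also lay below the floor in cavtratin. Of 10 measured monocyte and neutrophil markers, Ly6c2 was the only 1 above 0 here and 8 lay below. All these genes were named after their values were seen. H2-Ab1 at 0.46 and Ctss at 0.53 fell short of 1.5-fold, and 0.209% and 0.131% of expressed genes lay as far above 0. These shares only describe genes that were chosen by such differences.

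**Figure D2:**
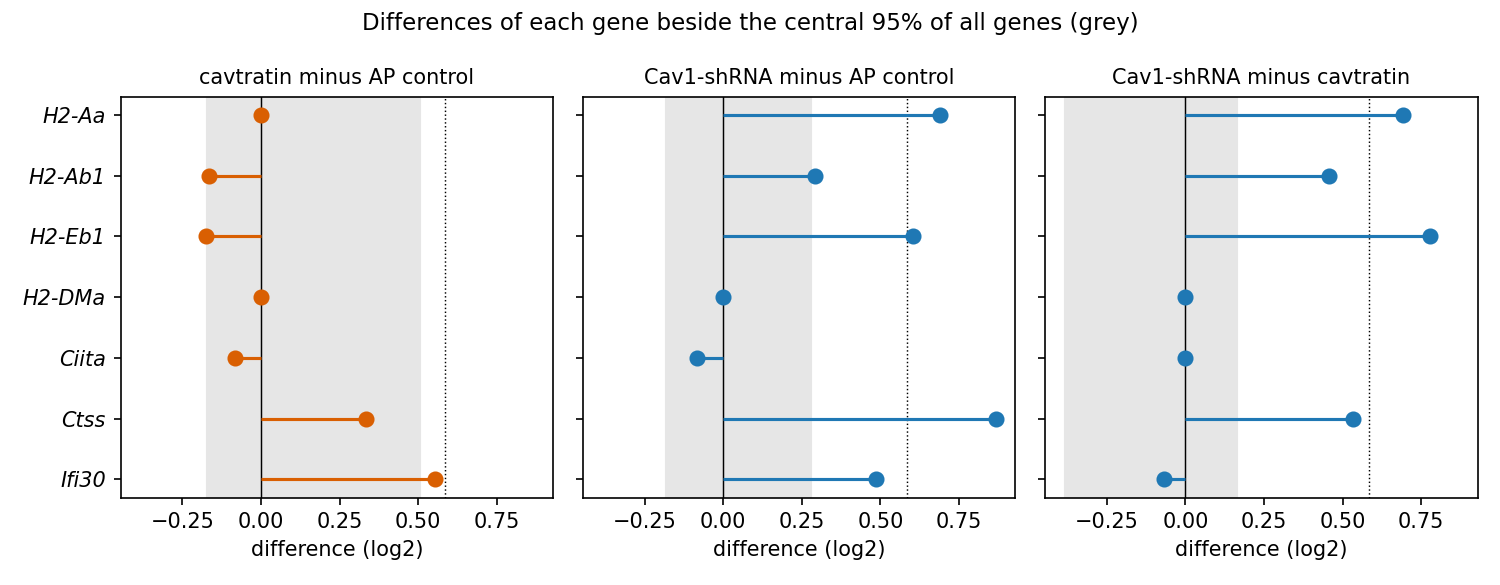
Difference in log2 value (x axis) of each of the 7 genes (rows) in the 3 comparisons, with points and bars from 0, grey bands for the central 95% of all expressed genes and a dotted line at 1.5-fold higher. The class II chains lie right of the band in Cav1-shRNA minus AP control, at 0.29 to 0.69, and in Cav1-shRNA minus cavtratin, at 0.46 to 0.78, and at or left of 0 in cavtratin minus AP control.

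The class II chains lie side by side in the mouse MHC, in the order H2-Ab1, H2-Aa, H2-Eb1 in the RefSeq table. From H2-Oa to H2-Eb2 that table lists 14 protein-coding genes, and all 14 had a value. In Cav1-shRNA minus AP control 7 of the 14 lay above 0, 2 below and 5 at 0, with a median of 0.078. The shares of expressed genes were 25.2% above 0 and 21.9% below. Besides the 3 chains, the expressed genes above 0 there were Psmb9, an immunoproteasome subunit, at 0.46, Tap1, a peptide transporter subunit for class I, at 0.19, and Psmb8, another immunoproteasome subunit, at 0.16. Psmb9 was at 6.80 in the array labelled Cav1-shRNA, 6.37 in cavtratin and 6.34 in AP control, so only the array labelled Cav1-shRNA reached the floor. Psmb8 also reached it only there, at 6.56. The neighbour Brd2, a chromatin reader outside the pathway, was at −0.035, and H2-DMa next to it was at 0. Higher values thus did not extend to Brd2, while the tie of H2-DMa, close to the floor, was not read as equal RNA. The other genes at or below 0 there lay below the floor.

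**Figure D3:**
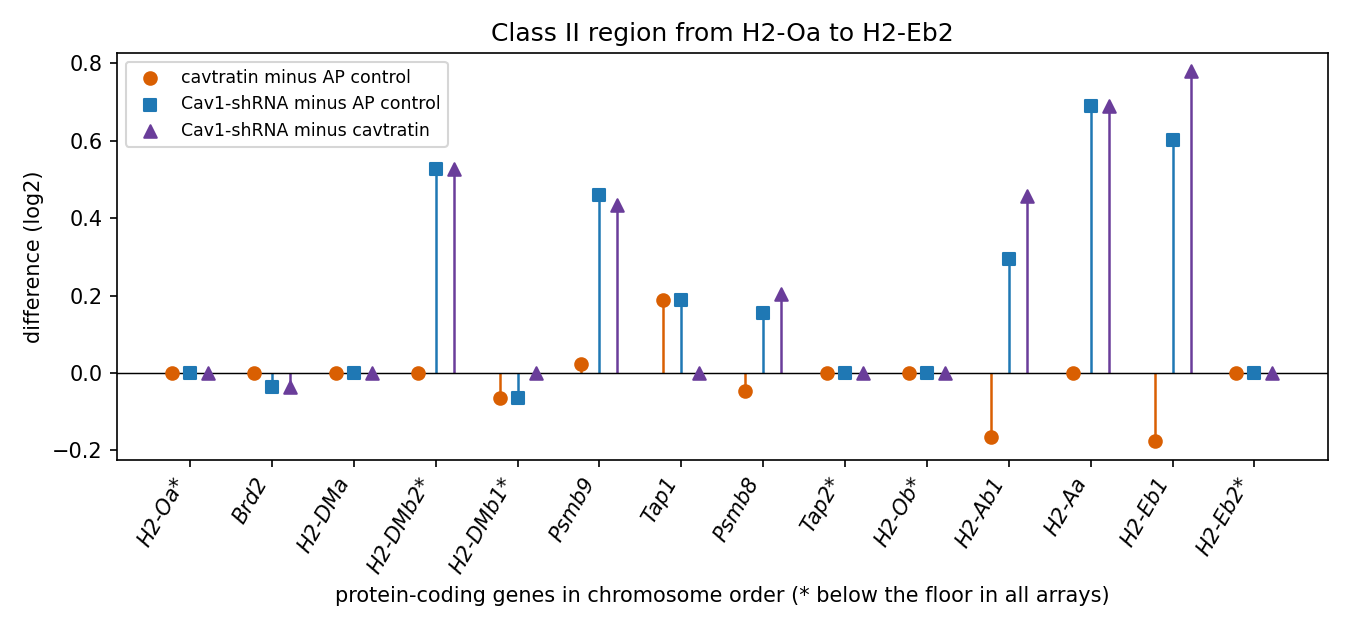
Difference in log2 value (y axis) of the 14 protein-coding genes from H2-Oa to H2-Eb2 in chromosome order (x axis), with circles for cavtratin minus AP control, squares for Cav1-shRNA minus AP control and triangles for Cav1-shRNA minus cavtratin. The 3 neighbouring class II chains stand at 0.29 to 0.69 in Cav1-shRNA minus AP control, beside 0.53 for H2-DMb2 and 0.46 for Psmb9. Brd2, H2-DMa, H2-Ob and H2-Eb2 lie at or near 0 in that comparison. H2-DMb2, H2-Ob and H2-Eb2 are below the floor in all arrays.

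The other chains of the class II pathway lay below the floor in every array. They were H2-DMb1 and H2-DMb2, the beta chains of H2-DM, H2-Oa and H2-Ob, the chains of the H2-DM inhibitor H2-O, and H2-Eb2. H2-DMb2 was at 5.40 in the array labelled Cav1-shRNA and 4.87 in both cavtratin and AP control, whereas its close copy H2-DMb1 was at 3.96 in the array labelled Cav1-shRNA and in cavtratin and at 4.02 in AP control. These genes are near-identical copies, so which of them a probe set measures is uncertain. H2-Oa, H2-Ob and H2-Eb2 were equal in all 3 arrays.

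Factors that act at class II promoters had equal or close deposited values across the arrays, mostly as exact ties, which were not read as equal RNA. Of 7 measured, Rfxap, Rfxank, Nfya, Nfyc and Creb1 were equal in all 3. Rfx5, which binds the X box, was at 8.12 in the array labelled Cav1-shRNA and in cavtratin and at 8.20 in AP control. Nfyb, a subunit of the Y box factor NF-Y, differed by −0.035 in Cav1-shRNA minus AP control and by −0.055 in cavtratin minus AP control. Interferon-gamma is the main inducer of Ciita, and 8 of 9 listed genes of its signalling were measured. Their median difference was 0.0036 in Cav1-shRNA minus AP control, 0.023 in cavtratin minus AP control and 0 in Cav1-shRNA minus cavtratin, with none at least 1.5-fold apart. Ifng, the cytokine itself, lay below the floor at 4.99 in the array labelled Cav1-shRNA and in cavtratin and at 5.11 in AP control. Ifngr2, a receptor subunit, was 0.23 higher in cavtratin and 0.14 higher in the array labelled Cav1-shRNA than in AP control. Irf1, an interferon-induced factor that acts on the Ciita gene, was at 7.05 in all 3 arrays.

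Lysosomal proteases and their inhibitors were higher in both agent arrays for some genes, as Ifi30 was. Of 15 measured, 8 lay above 0 and 3 below in cavtratin minus AP control, with a median of 0.018. In Cav1-shRNA minus AP control 9 lay above and 2 below, with a median of 0.014. Among expressed genes 19.6% and 25.2% lay above 0 in these comparisons, and 25.9% and 21.9% below. Cstb, a cytosolic cathepsin inhibitor, was at 10.14 in the array labelled Cav1-shRNA, 10.51 in cavtratin and 9.53 in AP control. Ctsz, a carboxypeptidase of the lysosome, was at 9.48 in the array labelled Cav1-shRNA, 9.61 in cavtratin and 8.92 in AP control. Relative to AP control, both reached 1.5-fold in cavtratin, and Cstb also in the array labelled Cav1-shRNA. The shares of expressed genes at least 1.5-fold higher were 2.19% in cavtratin and 0.901% in the array labelled Cav1-shRNA. Ctsh was 0.39 higher in cavtratin and 0.45 higher in the array labelled Cav1-shRNA than in AP control. Ctsb was 0.33 higher in cavtratin and 0.22 higher in the array labelled Cav1-shRNA than in AP control. In Cav1-shRNA minus cavtratin the 15 ranged from −0.37 to 0.083, and so none stood as far above 0 as Ctss at 0.53.

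Of 10 measured other lysosomal proteins, 8 lay above 0 in cavtratin minus AP control and 7 in Cav1-shRNA minus AP control, with none below in either. The shares of expressed genes above 0 were 19.6% and 25.2%, and those below 0 were 25.9% and 21.9%. Cd63, a tetraspanin of late endosomes, was 0.66 higher in cavtratin and 0.15 higher in the array labelled Cav1-shRNA than in AP control. Npc2, a cholesterol carrier of the lysosome, was 0.27 higher in each. Of 5 measured modifiers of class II turnover and peptide editing, 3 lay above 0 and none below in each comparison with AP control, and 1 lay above 0 and 2 below in Cav1-shRNA minus cavtratin. Marchf1, the ubiquitin ligase that removes class II from the surface, was at 9.29 in all 3 arrays. Cd9, a tetraspanin, was at 8.64 in the array labelled Cav1-shRNA, 8.97 in cavtratin and 8.45 in AP control. Cd37, a tetraspanin of leukocytes, was at 6.32 in the array labelled Cav1-shRNA, 6.51 in cavtratin and 6.18 in AP control. Both were thus highest in cavtratin, the only array in which Cd37 reached the floor. Unc93b1, which escorts Toll-like receptors to endosomes, was at 7.30 in the array labelled Cav1-shRNA, 7.04 in cavtratin and 6.77 in AP control.

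Class I presentation genes, which handle peptides from the cytosol, differed from AP control by at most 0.46 in the array labelled Cav1-shRNA. Of 15 measured, 12 lay above 0 and none below in Cav1-shRNA minus AP control, with a median of 0.11 and none at least 1.5-fold apart. Beside these, 25.2% of expressed genes lay above 0 and 21.9% below, and 0.901% were at least 1.5-fold higher and 0.367% lower. H2-K1, a classical class I heavy chain, was at 9.61 in the array labelled Cav1-shRNA, 9.25 in cavtratin and 9.36 in AP control, the same order of arrays as H2-Ab1 and H2-Eb1. B2m, the light chain of class I, was at 12.55 in the array labelled Cav1-shRNA, 12.46 in cavtratin and 12.21 in AP control. Tapbp, which helps load class I, was 0.34 higher in cavtratin and 0.18 higher in the array labelled Cav1-shRNA than in AP control.

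Markers of cells that carry class II also differed between the arrays, and their part in the class II values was not tested. The mean log2 level over all 17 microglia and macrophage markers was 7.55 in the array labelled Cav1-shRNA, 7.63 in cavtratin and 7.06 in AP control. In Cav1-shRNA minus AP control 16 of the 17 lay above 0 and 0 below, with a median of 0.42. In cavtratin minus AP control 11 lay above 0 and 1 below, with a median of 0.042. Among expressed genes 25.2% and 19.6% lay above 0 in these comparisons, and 21.9% and 25.9% below. Fcer1g, an Fc receptor subunit, was at 9.90 in the array labelled Cav1-shRNA, 10.67 in cavtratin and 8.81 in AP control. Itgam and Mpeg1, an integrin and a perforin-like protein of myeloid cells, were likewise highest in cavtratin, at −0.84 and −0.43 in Cav1-shRNA minus cavtratin. The class II chains were at 7.05 to 7.44 in cavtratin and at 7.74 to 7.89 in the array labelled Cav1-shRNA. A link between them and these markers was not tested. In Cav1-shRNA minus cavtratin the microglia and macrophage list split, with 8 genes above 0 and 7 below. Among expressed genes 25.9% lay above 0 there and 19.4% below. The list ranged from −0.84 for Itgam to 0.57 for Trem2, a lipid receptor. C1qa and C1qb, complement subunits made by microglia, were 0.41 and 0.51 higher in that comparison. The microglia marker P2ry12 was equal in all 3 arrays, at 6.87. Tmem119, another microglia marker, lay below the floor at 5.89 in all 3, with a range of 0.0034 between them. C1qa, C1qb, Trem2, P2ry12 and Tmem119 lie outside the rule for naming and were chosen after their values were seen.

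Monocyte and neutrophil markers had a mean level of 6.31 in the array labelled Cav1-shRNA, 6.97 in cavtratin and 5.79 in AP control over 10 of 11 listed genes. S100a8, a granulocyte alarmin, was at 7.44 in the array labelled Cav1-shRNA, 9.72 in cavtratin and 5.98 in AP control. Ly6c2 was the 1 gene of that list above 0 in Cav1-shRNA minus cavtratin, at 8.08 in the array labelled Cav1-shRNA, 6.16 in cavtratin and 6.59 in AP control, the order of arrays seen for H2-Ab1 and H2-Eb1. Dendritic cell markers, with 8 of 9 measured, differed by at most 0.025 in any comparison. In each comparison 7 of the 8 were exact ties, which were not read as equal RNA, and all but Cd209a and Ccr7 lay below the floor. B cell markers lay below it except Ighm, an immunoglobulin heavy chain, at 6.87 in the array labelled Cav1-shRNA, 6.80 in cavtratin and 6.95 in AP control. All 7 measured T and NK cell markers lay below it. Vascular endothelium markers, 6 of 6 measured, had a mean level of 7.92 in the array labelled Cav1-shRNA, 7.82 in cavtratin and 7.63 in AP control. The lens list, 10 of 10 measured, had a mean level of 8.35 in cavtratin and 7.02 in AP control, with a median difference of 0 in Cav1-shRNA minus AP control, and its part in the cavtratin values was not tested.

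**Figure D4:**
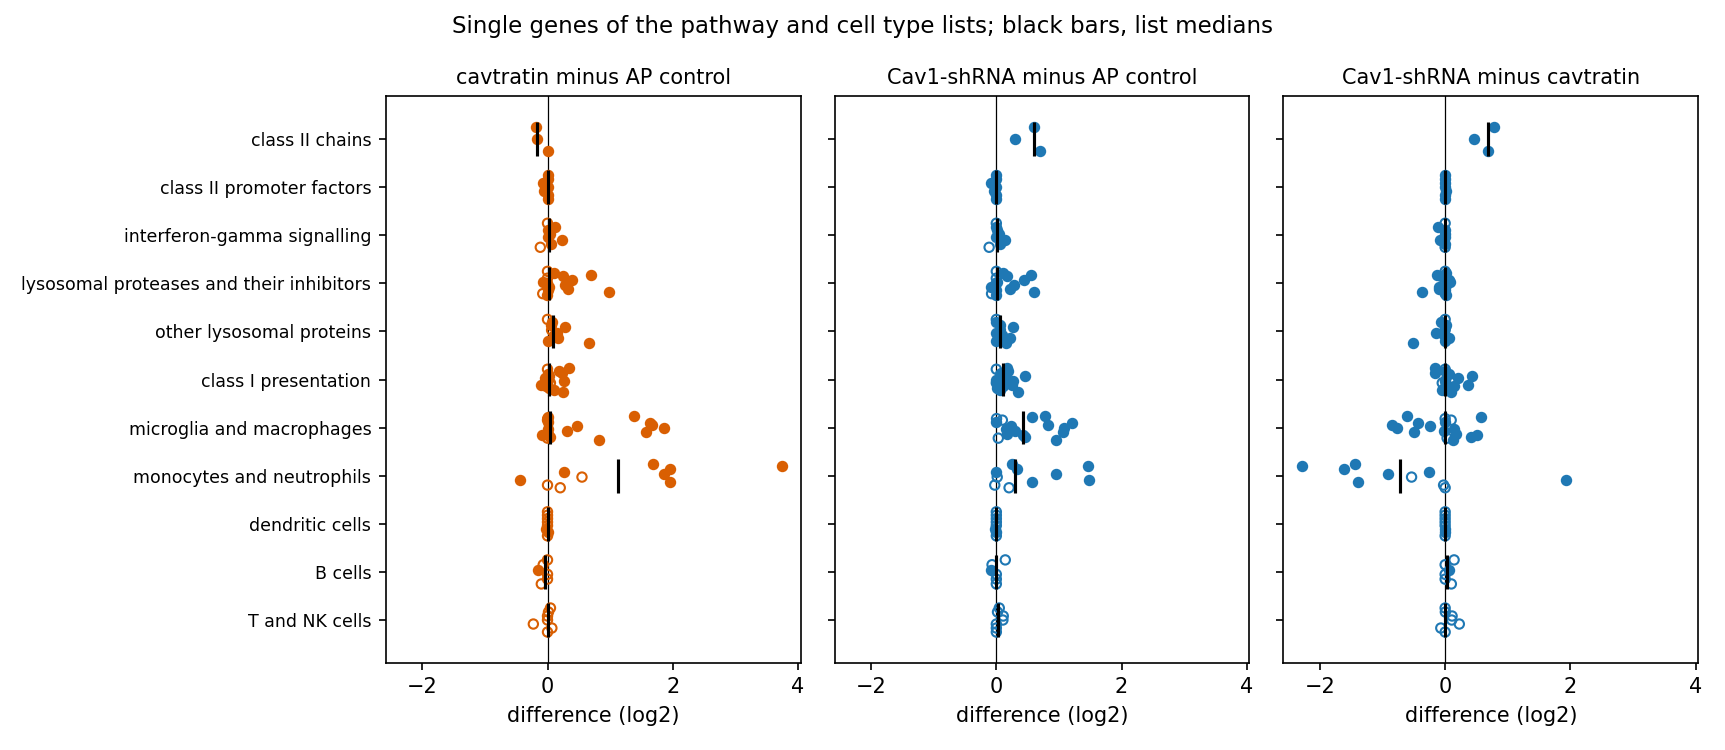
Difference in log2 value (x axis) of single genes in the class II chains and 10 lists (rows) for the 3 comparisons, with filled points for genes that reach the floor in at least 1 array, open points for the others and black bars for list medians. The 3 class II chains lie at 0.46 to 0.78 in Cav1-shRNA minus cavtratin, where monocyte and neutrophil markers range from −2.28 to 1.92. Dendritic cell markers lie within 0.025 of 0 in all comparisons, mostly as exact ties and below the floor.

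Other genes were ranked by how closely their values over the 3 arrays, each minus its own mean, followed the mean of H2-Aa, H2-Ab1 and H2-Eb1. Over 10728 expressed candidates the closest was Apobec2, an APOBEC family member known from muscle, at a Euclidean distance of 0.065, where a gene equal in all arrays would be at 0.48. Trem2 followed at 0.082, C1qb at 0.10, Ly86, a partner of a Toll-like receptor homologue, at 0.11, the small GTPase gene Rasl11a at 0.12 and the glutathione transferase gene Gsto1 at 0.13. Trem2 was at 7.51 in the array labelled Cav1-shRNA and 6.95 in both cavtratin and AP control, as H2-Aa was high in the array labelled Cav1-shRNA and tied in the others. C1qb was at 9.05 in the array labelled Cav1-shRNA, 8.54 in cavtratin and 8.63 in AP control. Likeness over 3 arrays is a description, and no more than 2 independent differences stand behind it.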

How the data were processed

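Retinal RNA was labelled for Affymetrix whole-transcript GeneChips, per the labels' protocols. The authors deposited a table of 41345 probe sets over 3 arrays, read as log2 values from their range. How they were summarised and normalized, and the log base, is not stated in the labels. The sorted columns differed by at most 0.209. The platform's annotation, possibly dated, gave 1 symbol to 23521 probe sets, several to 1814 and none to 16010. Of the 23521, 23328 matched RefSeq by Entrez identifier, and 0 symbols were updated. The probe set with the highest mean stood for a gene.

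Differences were computed from the deposited log2 values with Python 3.11.15, numpy 2.4.6 and pandas 2.3.3, with ties taken within 1e-09. With 1 array per group no test was run. Counts at 1.5-fold and 2-fold required the higher array to reach the floor. The counting was checked on simulated arrays. The members and lists were chosen with earlier results of these data known. Named were all members and the 6 closest profiles, with exceptions stated. From the lists, up to 4 genes per pathway list and 3 per cell type list were picked by the widest range over arrays. Not all picked genes are printed above. Among those left out are Cryba1 and Cryaa of the lens list, Csf3r, Retnlg, Cdh5 and the Muller glia genes. Irf1, Ifng, H2-Ea, equal promoter factors, neighbours in the class II region and chains below the floor were named outside this rule. So were the genes beside H2-Eb1 and H2-Aa that were at least 1.5-fold higher in Cav1-shRNA minus cavtratin. Alternatives were centring, quantile normalization, the mean of probe sets, no floor and a floor at the 75th percentile.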

Additional observations from a re-analysis of the deposited data

How the results depend on the processing

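The 21 differences of single genes moved by at most 0.058 under centring of each array on its median and by at most 0.052 under quantile normalization. The 5 differences that changed sign under each of these were exact ties. Centring adds 0.058 to every difference of Cav1-shRNA minus AP control and 0.051 to those of Cav1-shRNA minus cavtratin. It puts Ciita at −0.025 in Cav1-shRNA minus AP control and Ifi30 at −0.018 in Cav1-shRNA minus cavtratin, and it turns every tie counted above into a small positive value. The medians over the 7 genes moved by less than the probe set spread, and the counts at 1.5-fold and 2-fold were the same number under centring, quantile normalization, the mean of probe sets and no floor. With the floor at the 75th percentile, 8.20, which H2-Aa and H2-Eb1 do not reach, 1 of the 7 genes in place of 3 was at least 1.5-fold higher in Cav1-shRNA minus AP control, and 0 in place of 2 in Cav1-shRNA minus cavtratin. Over all genes, that floor gave 113 genes at least 1.5-fold higher and 10 lower in place of 251 and 27 in cavtratin minus AP control, and at 2-fold 81 and 5 in place of 156 and 11. In Cav1-shRNA minus AP control it gave 32 and 14 in place of 103 and 42, and at 2-fold 16 and 5 in place of 39 and 14. In Cav1-shRNA minus cavtratin it gave 2 and 90 in place of 11 and 175, and at 2-fold 2 and 54 in place of 4 and 90. Without a floor the counts at 1.5-fold that moved by over 1.5 times were 48 lower in cavtratin minus AP control, 69 lower in Cav1-shRNA minus AP control and 24 higher in Cav1-shRNA minus cavtratin. No paired analysis was possible because each group has 1 array. Values near the floor, such as those of Ciita and H2-DMa, limit what a difference of 0 can show.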

Other observations

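The other genes of the H2 family, 30 with a probe set of their own, mostly lay below the floor, and 5 reached it. H2-Q10, a class I gene known in mice for a secreted product of the liver, was at 8.69 in cavtratin and 6.40 in AP control by its brighter probe set, and 0.60 higher in the array labelled Cav1-shRNA than in AP control. The cavtratin value is 4.92-fold that of AP control, the largest difference among these 30 genes. Its other probe set was at 5.72 in all 3 arrays, so the probe sets of this gene disagree. Genes of the Q region are near-identical copies, which makes the source of either signal uncertain. H2-Q4 was at 7.10 in the array labelled Cav1-shRNA, 7.15 in cavtratin and 7.42 in AP control, lower in both agent arrays, and its dimmer probe set was at 5.15 in all 3. These genes were chosen after their values were seen.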
